A study of Caenorhabditis elegans with 6 samples.

Results

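The genes described here are 10 genes of Caenorhabditis elegans that act in the formation of meiotic DNA breaks and in the designation of crossovers. They were taken from a list of names and looked up in the count tables by WBGene identifier or sequence name, and all 10 were found among the 45510 genes listed. The 6 small RNA libraries, 1 per group, came from anti-FLAG precipitates of the Argonaute protein WAGO-4, and no library is an input or an untagged control. All groups carried 3xFLAG::GFP::WAGO-4 and were labelled as young adults kept at 20 °C. One group was treated with lin-15b RNAi, 1 was kept on HT115, the bacterial strain used to feed double-stranded RNA (dsRNA), 3 followed exposure to oma-1 dsRNA (the exposed P0 animals and their F1 and F3 descendants), and 1 was untreated. Growth notes differ between libraries and do not all match young adults: those of HT115 and P0 speak of embryos held at several temperatures, those of F1 of larvae without food, and those of F3 of embryos given UV at 50 mJ/cm2. Whether the notes apply to these precipitates could not be settled.

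In the worm germline, Argonaute proteins such as WAGO-4 carry short RNAs that RNA-dependent RNA polymerases make on messenger RNA templates, so that these RNAs are antisense to the gene they come from. WAGO-4 is known for the inheritance of RNA interference from parent to offspring. In meiosis, germ cells cut their own DNA, and repair of a chosen subset of the cuts as crossovers ties homologous chromosomes together until they part.

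The break formation genes were spo-11, dsb-1, dsb-2, him-5, him-17 and xnd-1. The gene spo-11 encodes the topoisomerase-like enzyme that makes the cuts, and lies on chromosome IV from 11123133 to 11124862 on the minus strand. The related genes dsb-1 and dsb-2 encode chromosome-bound factors needed for cutting, and lie on chromosome IV from 12408925 to 12410470 and on chromosome II from 14411095 to 14412218, both on the plus strand. The genes him-5, needed above all for breaks on the X chromosome, and him-17, which encodes a chromatin-associated protein, lie on the plus strand of chromosome V, from 14090426 to 14092454 and from 13176711 to 13180185. The gene xnd-1 encodes a chromatin factor of germ cell nuclei and lies on chromosome III from 5604460 to 5607556 on the plus strand.

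The crossover genes were msh-5, him-14, cosa-1 and zhp-3. The gene msh-5 (chromosome IV, 13155233 to 13164054, plus strand) and the gene him-14 (chromosome II, 7065020 to 7069966, minus strand), the worm counterpart of MSH4, encode the partners of a MutS-type complex that stabilises crossover intermediates. The gene cosa-1 (chromosome III, 2726116 to 2731670, plus strand) encodes a cyclin-related protein that marks designated crossover sites. The gene zhp-3 (chromosome I, 8529376 to 8531342, minus strand) encodes a RING finger protein that gathers at the same sites. All coordinates are those of the Ensembl release 115 annotation of WBcel235. The annotated exons of these genes sum to between 937 bases in dsb-2 and 4216 bases in msh-5.

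The libraries held 8667735 to 11309227 reads assigned to genes. Values over both strands are CPM, counts per 1000000 reads of the 45162 genes listed for all libraries. Where antisense levels are given, they are per 1000000 antisense reads. Intervals in brackets are 95% intervals of counting error alone, and they treat each read as a separate molecule. Without molecular identifiers PCR copies could not be set apart, so the intervals may be too narrow. Each group has 1 library, so differences carry neither a replicate check nor a p-value. In whole-animal precipitates, fewer germ cells and fewer small RNAs per cell cannot be told apart. Of the marker genes, 6 of 6 germline markers and 7 of 7 oocyte and early embryo markers reached 25 antisense CPM in each of the 5 libraries that keep the strands apart, against 0 of 6 intestine markers, 0 to 1 of 8 sperm markers, 0 to 1 of 5 muscle markers, 0 of 5 cuticle markers and 1 of 5 neuron markers. Intestine markers still held 4867 to 14142 CPM over both strands, nearly all sense. As a check of the labels, oma-1 antisense reads were 14.9-fold (13.8 to 16.1) higher in P0 than on HT115, 3.28-fold in F1 and 2.05-fold in F3. Over both strands lin-15B had 1250.3 CPM after lin-15b RNAi and 188 CPM in the untreated library, a 6.66-fold difference (6.36 to 6.98).

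All 10 genes had antisense small RNA reads in the WAGO-4 precipitates in each of the 5 libraries with strands. At 25 antisense CPM or more stood 9 of 10 after lin-15b RNAi and 10 of 10 on HT115, at P0, at F1 and at F3, where the shares of all protein-coding genes at that level were 24.8%, 26.8%, 27.1%, 26.3% and 26.3%. The exception was zhp-3 after lin-15b RNAi, at 24.1 antisense CPM. Of other genes of the same process, 12 of 12 break and end-processing genes and 15 to 16 of 16 crossover and joint-molecule genes reached that level. Summed over the 10 genes, antisense levels were 1902 CPM after lin-15b RNAi, 1671 on HT115, 1688 at P0, 1581 at F1 and 1613 at F3.

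Among the break formation genes, xnd-1 had 340.3 antisense CPM after lin-15b RNAi, 232 on HT115, 242 at P0, 231 at F1 and 227 at F3. The gene dsb-1 had 324 antisense CPM after lin-15b RNAi, 166 on HT115, 169 at P0, 143 at F1 and 156 at F3. The gene dsb-2 had 146 antisense CPM after lin-15b RNAi, 54.2 on HT115, 55.7 at P0, 51.01 at F1 and 56.9 at F3. In these 3 genes the lin-15b RNAi library was the highest of the 5, and the 4 others lay close together. The gene him-17 had 183 antisense CPM after lin-15b RNAi, 204 on HT115, 199 at P0, 192 at F1 and 206 at F3. The gene him-5 had 72.2 antisense CPM after lin-15b RNAi, 78.9 on HT115, 80.1 at P0, 66.2 at F1 and 61.6 at F3. For him-5 the lin-15b RNAi library lay within the range of the others. For him-17 it was the lowest, at a fold of 0.882 (0.817 to 0.952) against HT115. Still, him-17 varied least, by a factor of 1.13 between its highest and lowest library. The enzyme gene itself, spo-11, was the lowest of the 6, with 26.9 antisense CPM after lin-15b RNAi, 30.6 on HT115, 37.5 at P0, 26.8 at F1 and 27.5 at F3.

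Among the crossover genes, msh-5 had 476 antisense CPM after lin-15b RNAi, 541 on HT115, 548 at P0, 523 at F1 and 523 at F3. Its partner him-14 had 245 antisense CPM after lin-15b RNAi, 165 on HT115, 171 at P0, 158 at F1 and 168 at F3. Of the 5 libraries, that of lin-15b RNAi was thus the lowest for msh-5 and the highest for him-14, the 2 genes of the MutS-type pair. Against the untreated library over both strands, both genes were lower after lin-15b RNAi, with folds of 0.871 in msh-5 and 0.761 in him-14. The gene cosa-1 had 65.9 antisense CPM after lin-15b RNAi, 74.0 on HT115, 81.4 at P0, 72.9 at F1 and 71.3 at F3. The gene zhp-3 had 24.1 antisense CPM after lin-15b RNAi, 124 on HT115, 105 at P0, 117 at F1 and 115 at F3. The highest of the zhp-3 levels was 5.16 times the lowest, the widest ratio of the 10 genes on antisense reads.

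**Figure D1:**
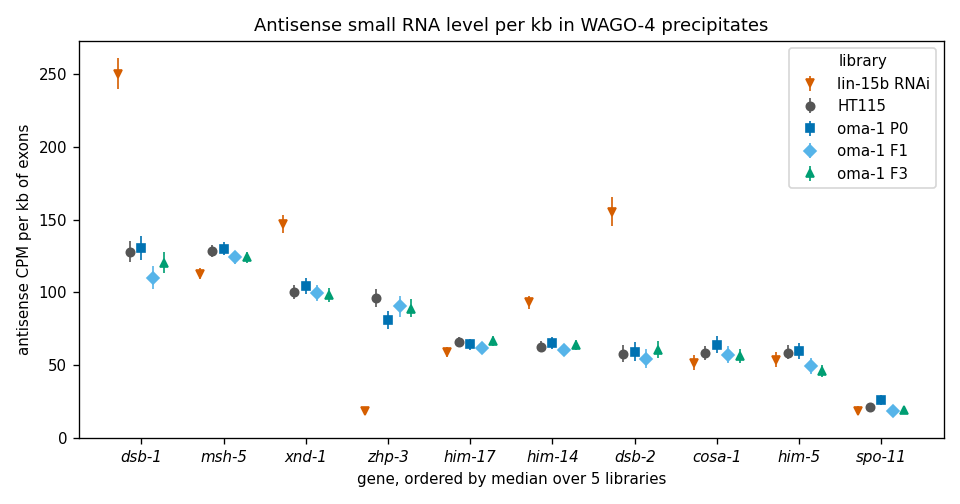
Antisense small RNA level of each gene per kb of exons (y axis, antisense CPM per kb) in the 5 libraries with strands, with genes ordered by their median (x axis) and bars for the 95% Poisson interval. The lin-15b RNAi points of dsb-1 (249.7), dsb-2 (155) and xnd-1 (147) stand above those of the other libraries, and that of zhp-3 (18.6) stands below them.

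Levels of different genes were compared per kb of annotated exons. The median over the 5 libraries was highest in dsb-1 at 128 antisense CPM per kb, with a range of 110.2 to 249.7, followed by msh-5 at 124 (113 to 130.0), xnd-1 at 100.2 (98.1 to 147) and zhp-3 at 89.0 (18.6 to 96.1). These were followed by him-17 at 64.4 (59.2 to 66.7), him-14 at 63.9 (60.2 to 93.2), dsb-2 at 59.5 (54.4 to 155), cosa-1 at 57.4 (51.9 to 64.1), him-5 at 53.8 (45.9 to 59.7) and spo-11 at 19.2 (18.7 to 26.2). Between neighbours in this order the ranges did not overlap for xnd-1 over zhp-3 and for him-5 over spo-11, and overlapped for the other pairs. Per kb, the 10 genes stood above 72.5% (spo-11 in F1) to 97.8% (dsb-1 after lin-15b RNAi) of protein-coding genes in the same library. Break formation and crossover genes were mixed in the order, each holding 2 of the highest 4 places. The order rests on the length and on the counting: per kb of longest coding sequence him-5 moved to 95.5 and the fifth place, and with the highest transcript in place of the sum dsb-1 stood at 65.9 in the third place and zhp-3 at 46.4 in the eighth. In dsb-1 and zhp-3 the reads divide almost evenly between 2 transcript lines, with 595 and 631 antisense reads for dsb-1 and 457 and 462 for zhp-3 on HT115.

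Reads of these genes were mostly antisense. Of all their reads, 89.5% were antisense after lin-15b RNAi, 94.1% on HT115, 89.6% at P0, 81.9% at F1 and 91.9% at F3, where the shares over all protein-coding reads were 73.5%, 83.2%, 75.6%, 62.6% and 78.2%. Single members above the share of all protein-coding reads numbered 8 of 10 after lin-15b RNAi, 9 on HT115, 10 at P0, 9 at F1 and 10 at F3. Of the protein-coding genes at 25 CPM or more over both strands, 63.7%, 72%, 69.6%, 66.9% and 71.3% lay above it in the same libraries, so that most genes at this level do. The antisense share was lowest in spo-11 in each of the 5 libraries, at 54.4% (49.0 to 59.7) with lin-15b RNAi, 82.5% (77.5 to 86.5) with HT115, 77.7% (72.5 to 82.1) at P0, 52.7% (46.8 to 58.5) at F1 and 78.5% (73.1 to 83.1) at F3. The gene him-17 was the second lowest in each, with 73.4% after lin-15b RNAi, 87.8% on HT115, 79.4% at P0, 65.2% at F1 and 83.1% at F3. The highest share belonged to dsb-2 after lin-15b RNAi, at 97.8%, and to msh-5 in the other 4 libraries, at 90.1% to 96.9%.

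**Figure D2:**
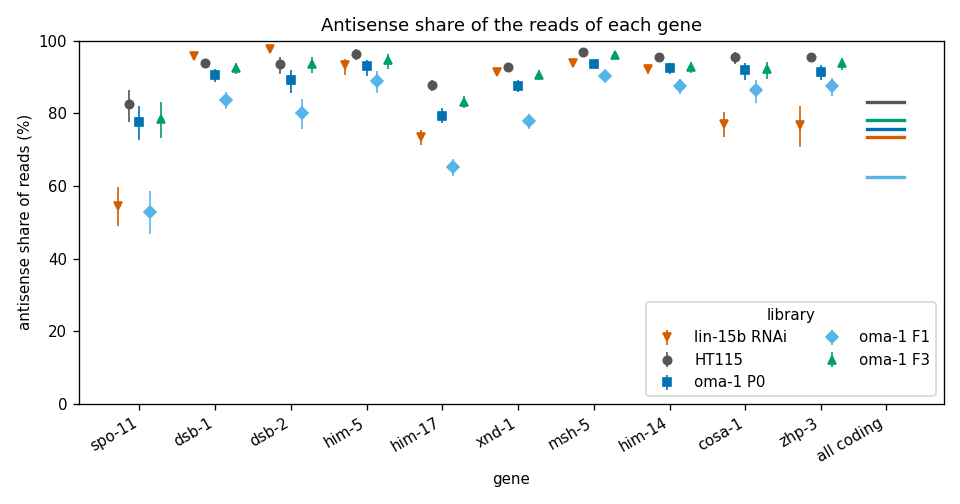
Antisense share of the reads of each gene (y axis, percent) in the 5 libraries with strands, with 95% Wilson intervals, and horizontal marks for the share over all protein-coding reads. The points of spo-11 lie between 52.7% and 82.5%, below those of the other genes in each library.

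Sense reads of 4 of the 10 genes were more frequent after lin-15b RNAi than on HT115, with an interval above 1, as were those of 33.9% of 6234 genes at 25 CPM or more over both strands in either library, so that the count is near that of all genes. The gene cosa-1 had 129 sense reads after lin-15b RNAi and 26 on HT115, a 3.69-fold difference per sense read (2.41 to 5.86). Sense reads of spo-11 numbered 149 and 48 in the same libraries, 2.31-fold (1.66 to 3.27), those of him-14 139 and 57, 1.81-fold (1.32 to 2.51), and those of him-17 438 and 210, 1.55-fold (1.31 to 1.84). The intervals of the other 6 members held 1. Part of the cosa-1 and him-14 exons is shared with a gene on the opposite strand. Y71H2AM.12 overlaps 178 exonic bases of cosa-1, 14.02% of its exons, and its own antisense reads numbered 194 after lin-15b RNAi and 52 on HT115. The germline gene nos-2 overlaps 154 exonic bases of him-14, 5.86% of its exons, with 446 antisense reads after lin-15b RNAi and 438 on HT115. Opposite-strand overlaps of spo-11 with enpl-1 (23 bases), of dsb-2 with exl-1 (17 bases) and of xnd-1 with C05D2.8 (48 bases) were shorter. The gene dsb-1 shares 4 bases with acl-13 on the same strand, which had 1 to 5 antisense reads in each library. Without shared exon bases, cosa-1 lies within the span of cox-6B. Within zhp-3, likewise without shared exon bases, lie a same-strand tRNA gene and the opposite-strand ncRNA gene K02B12.11. Over both strands K02B12.11 had 10 reads untreated, 40 after lin-15b RNAi, 87 on HT115, 149 at P0, 275 at F1 and 175 at F3. The genes him-5, him-17 and msh-5 overlap no gene. How far reads of a shared stretch enter both counts was not tested.

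The gene lin-15b belongs to the synMuv B class, which represses germline genes in somatic cells. Its RNAi library was set against the untreated library over the sum of both strands, because the untreated table has 1 count column, taken here to hold both strands, which the labels do not state. A gene was measured at 25 CPM or more in the higher library and was called at a 2-fold difference. Of the 10 genes, 1 was called lower and 0 higher, where 1.8% of 5818 measured genes were called lower and 6.31% higher. The gene called was cosa-1, with 59.7 CPM after lin-15b RNAi and 125 CPM in the untreated library, a fold of 0.479 (0.434 to 0.528). The largest fold above 1 was that of spo-11, with 34.6 CPM after lin-15b RNAi and 23.8 CPM in the untreated library (1.46, 1.24 to 1.72). The break factors dsb-1 (236 CPM after lin-15b RNAi, 310.2 CPM untreated, fold 0.762, 0.722 to 0.804) and dsb-2 (104 CPM and 122 CPM, fold 0.851, 0.784 to 0.924) were below 1, as were xnd-1 (0.820), msh-5 (0.871), him-14 (0.761) and zhp-3 (0.763). Above 1 stood him-5 at 1.16 (1.03 to 1.32), while the interval of him-17 held 1 (1.05, 0.980 to 1.12). The median log2 ratio of the 10 genes was -0.26, against 0.04 over all measured genes. Other genes of the same process, listed from general knowledge, gave 0 calls among 12 break and end-processing genes (median log2 ratio -0.14) and 0 among 15 measured of 16 crossover and joint-molecule genes (median -0.23). Their folds ran between 0.673 in rad-54.L and 1.10 in rec-1 in the first list, and between 0.570 in the helicase gene him-6 and 1.82 in the helicase gene rtel-1 in the second.

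With HT115 as the reference, other members were called after lin-15b RNAi. On antisense reads dsb-2 was 2.64-fold (2.35 to 2.98) higher after lin-15b RNAi than on HT115 and zhp-3 was 5.24-fold lower (fold 0.191, 0.160 to 0.226), and these were the members called, 1 higher and 1 lower, where 9.44% of 5772 measured genes were called higher and 19.4% lower. Over both strands the same 2 genes were called, at folds of 2.28 (2.03 to 2.56) and 0.214 (0.183 to 0.249), where 9.56% of 6234 measured genes were called higher and 13.6% lower. The gene cosa-1 was not called against HT115, with a both-strand fold of 0.979 (0.870 to 1.10) and an antisense fold of 0.877 (0.771 to 0.996). The both-strand folds of dsb-1 (1.70, 1.58 to 1.82), xnd-1 (1.32, 1.246 to 1.41) and him-14 (1.37, 1.27 to 1.47) were above 1, as was that of dsb-2, whereas all 4 genes were below 1 against the untreated library. The gene him-5 went the other way, at 0.842 (0.747 to 0.948) against HT115 and 1.16 (1.03 to 1.32) against the untreated library. The calls after lin-15b RNAi therefore depend on the reference library, as does the direction of dsb-1, dsb-2, xnd-1, him-14 and him-5. Over both strands the direction of some members was the same against either reference. Below 1 were zhp-3 (0.763 against the untreated library, 0.214 against HT115) and msh-5 (0.871 and 0.808). Above 1 was spo-11 (1.46 and 1.19). On antisense reads alone, however, spo-11 had a fold of 0.868 (0.709 to 1.06) against HT115, an interval that held 1.

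The HT115 and untreated libraries are the 2 without RNAi, and were also compared over both strands, so this comparison shares the untreated library with the one above. Of the 10 genes, 1 was called higher and 3 lower, where 18.5% of 6170 measured genes were called higher and 9.77% lower. The gene zhp-3 had 102 CPM on HT115 and 28.7 CPM in the untreated library, 3.57-fold (3.14 to 4.06) higher, a fold above that of 96.4% of measured genes. The 3 genes called lower were dsb-2, with 45.7 CPM on HT115 and 122 CPM untreated (fold 0.373, 0.334 to 0.416), dsb-1, with 139 CPM and 310.2 CPM (0.449, 0.421 to 0.478), and cosa-1, with 61.0 CPM and 125 CPM (0.489, 0.443 to 0.540). Both related break factors were thus lower on HT115, while spo-11, the enzyme gene they serve, had 29.2 CPM on HT115 and 23.8 CPM untreated (1.23, 1.03 to 1.46). The genes him-14 (0.557, 0.521 to 0.595) and xnd-1 (0.619, 0.585 to 0.655) lay between the called genes and 1. The folds of him-5 (1.38), him-17 (1.10) and msh-5 (1.08) were above 1 with intervals that excluded it. The median log2 ratio of the 10 genes was -0.29, against 0.31 over all measured genes, which shifted as a whole. With median-of-ratios scaling the all-gene median was 0.00 and the calls over all genes were 658 higher and 913 lower, with TMM scaling -0.23 and 396 higher and 1250 lower, against 1142 higher and 603 lower with library totals. Under both of these scalings xnd-1 and him-14 joined the genes called lower, making 5, zhp-3 was still called higher, and 2 and 1 members stood above 1 in place of 5.

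**Figure D3:**
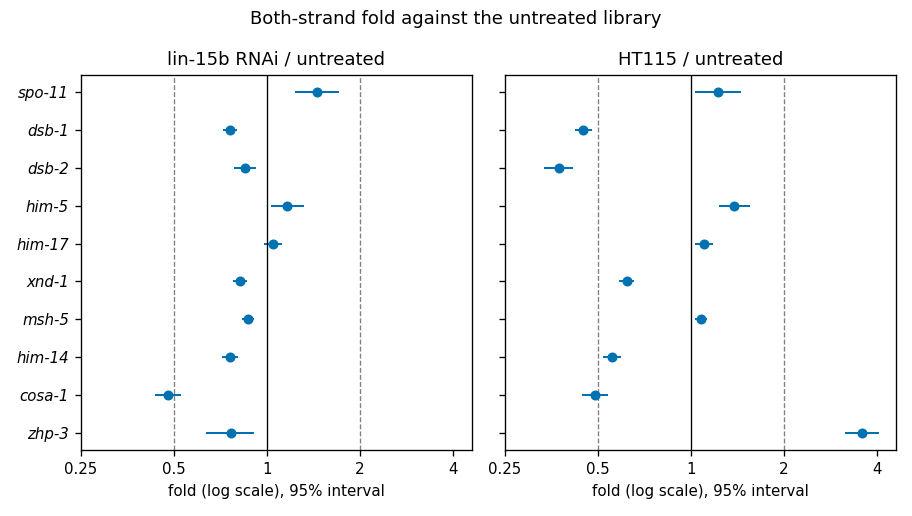
Fold of each gene over both strands (x axis, log scale) after lin-15b RNAi and on HT115, each over the untreated library, with 95% intervals, a solid line at 1 and dashed lines at 2-fold. After lin-15b RNAi cosa-1 lies past the lower dashed line (0.479), and on HT115 dsb-1, dsb-2 and cosa-1 lie past it while zhp-3 lies past the upper one (3.57).

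Among the other genes of the process, 1 of 12 break and end-processing genes was called lower on HT115. This was chk-2, the kinase gene that licenses break formation, with 653 CPM on HT115 and 6069.9 CPM in the untreated library (fold 0.108, 0.105 to 0.111). Of 15 measured crossover and joint-molecule genes, 3 were called lower: zhp-2, a relative of zhp-3, with 153 CPM on HT115 and 760.3 CPM untreated (0.201), brc-1, the worm BRCA1 counterpart (0.420, 0.392 to 0.450), and him-6 (0.443, 0.423 to 0.463). The relatives zhp-2 and zhp-3 were therefore called in opposite directions. No gene of these lists was called higher. The highest folds were 1.65 in parg-1 and 1.84 in rtel-1. The medians of the lists, 0.21 and 0.19 on the log2 scale, lay above 0 and below the 0.31 of all measured genes.

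The tables of the lin-15b RNAi and untreated libraries list the same 45162 genes, and those of the other 4 list 348 more, so the libraries form 2 sets of tables. Over both strands 4 of the 10 genes, dsb-1, dsb-2, xnd-1 and him-14, were higher in the lin-15b RNAi and untreated libraries than in all of the other 4, without overlap, and 1, zhp-3, was lower in both. Of 6599 genes at 25 CPM in any library, 23.6% were higher and 42% lower in this way. The ranges were 236 to 310.2 CPM against 95.7 to 139 CPM for dsb-1, 104 to 122 CPM against 35.7 to 45.7 CPM for dsb-2, and 21.9 to 28.7 CPM against 75.1 to 102 CPM for zhp-3. For xnd-1 they were 261 to 318 CPM against 167 to 197 CPM, and for him-14 186 to 244 CPM against 101 to 136 CPM. In cosa-1 the untreated library stood alone, at 125 CPM, with the other 5 between 47.4 and 62.4 CPM. The genes spo-11, him-5, him-17 and msh-5 overlapped between the sets. The set of tables cannot be told apart from the other differences between these groups.

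**Figure D4:**
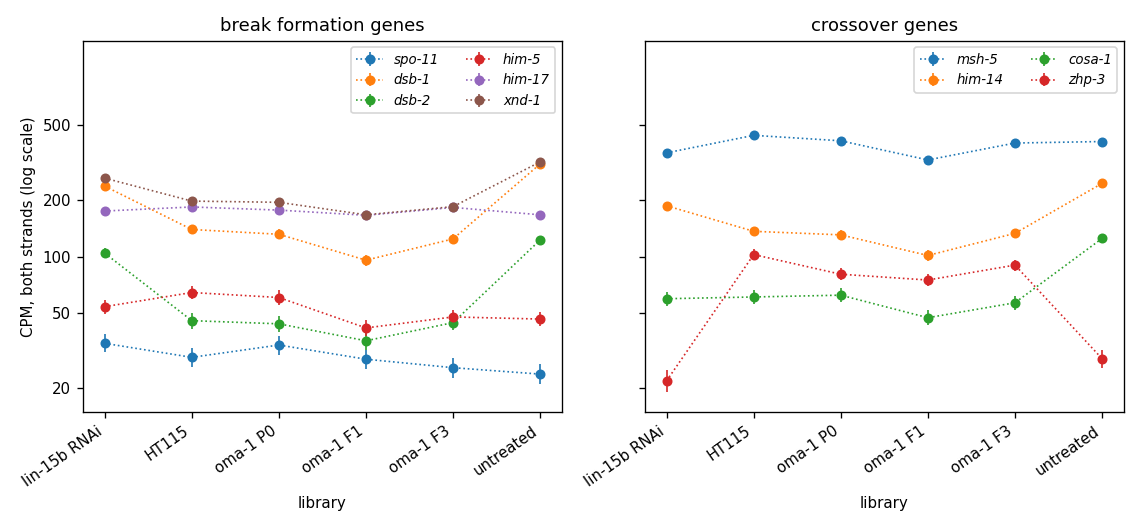
Level of each gene over both strands (y axis, CPM, log scale) in the 6 libraries (x axis), with 95% Poisson intervals; dotted lines join the points of a gene and mark no order of time. The gene zhp-3 stands at 21.9 to 28.7 CPM in the lin-15b RNAi and untreated libraries and at 75.1 to 102 CPM in the other 4, while him-17 stays between 166 and 183 CPM.

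The member with the widest difference in CPM between its highest and lowest library over both strands was dsb-1, with 95.7 CPM in F1 and 310.2 CPM in the untreated library. The widest ratio, 4.67, was that of zhp-3. Among 5919 genes at 25 CPM or more on average, the profiles closest to dsb-1 over the 6 libraries were those of fubl-4, immp-1 and C35D10.7, at Euclidean distances of 0.0834, 0.170 and 0.171 between centred log2 profiles. The member closest to dsb-1 was its relative dsb-2, at rank 75 and a distance of 0.354. The profile closest to him-14, named after its value was seen, was that of dsb-3, at 0.0958. The gene dsb-3 is not a member, and no member was the closest profile of another. The rank of the nearest other member ran from 64 (xnd-1 for him-14) to 3169 (msh-5 for zhp-3). All distances share the same 6 libraries and their depths.

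The P0, F1 and F3 libraries follow oma-1 dsRNA exposure over generations. They were compared with HT115 on antisense reads, and the 3 comparisons share the HT115 library. None of the 10 genes was called in any of the 3 comparisons, in which 0.563% of 5866 genes in P0, 1.93% of 5815 genes in F1 and 0.916% of 5788 genes in F3 were called in either direction. In P0 the folds ran between 0.843 (0.761 to 0.934) in zhp-3, with 105 CPM in P0 and 124 CPM on HT115, and 1.23 (1.01 to 1.48) in spo-11, with 37.5 CPM in P0 and 30.6 CPM on HT115. These were the members whose interval excluded 1, and the other 8 folds lay between 0.974 in him-17 and 1.10 in cosa-1. Intervals excluded 1 upward in 18.3% and downward in 13.6% of all measured genes in this comparison.

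In F1 the folds of all 10 genes were below 1, between 0.840 in him-5 and 0.995 in xnd-1, with the all-gene median log2 ratio at -0.03 and that of the 10 genes at -0.09. This direction depends on the scaling, since 2 members stood above 1 with median-of-ratios scaling, 3 with TMM scaling and 1 with totals without the 20 most abundant genes. The intervals of him-5 (0.735 to 0.959) and of dsb-1 (0.861, 0.786 to 0.943) lay below 1, where those of 21.7% of measured genes did. F1 was also the library with the lowest antisense share, 55.6% of gene-assigned reads against 77.8% on HT115, and with most ribosomal RNA, 9.82% against 5.24%, and the part of these in the folds was not tested. In F3 the folds ran between 0.781 (0.689 to 0.884) in him-5 and 1.05 (0.913 to 1.21) in dsb-2, with 3 members above 1 and 7 below, or 7 above with TMM scaling. The gene him-5, which had 61.6 CPM in F3 and 78.9 CPM on HT115, was the member whose interval lay below 1, where those of 26.2% of measured genes did. The break enzyme gene spo-11 had folds of 0.876 (0.707 to 1.08) in F1 and 0.900 (0.740 to 1.09) in F3, with intervals that held 1 in both.

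**Figure D5:**
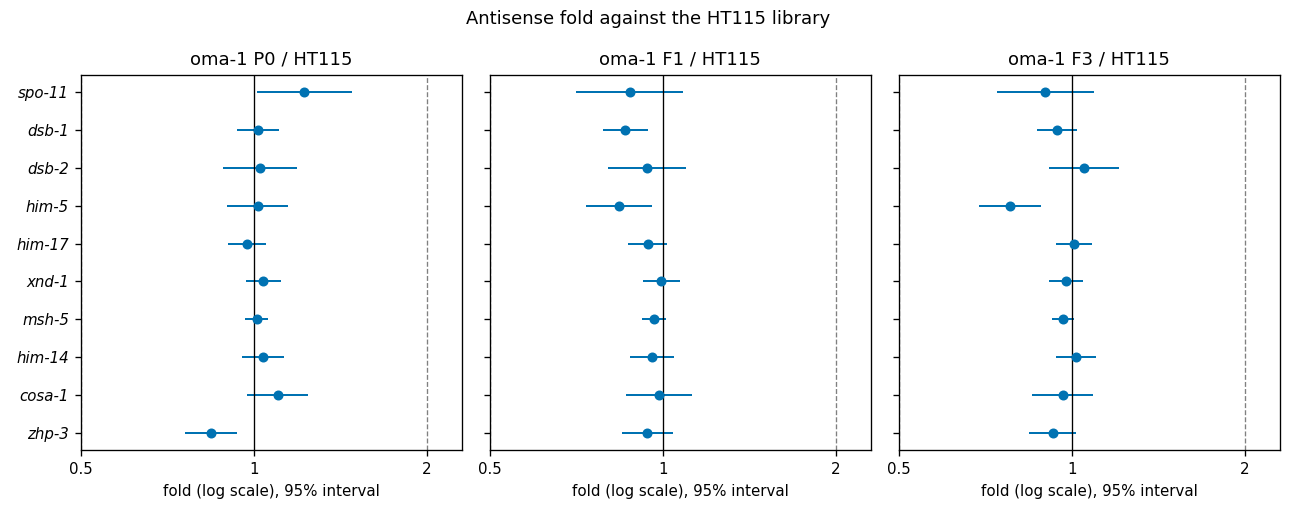
Antisense fold of each gene (x axis, log scale) in P0, F1 and F3 over HT115, with 95% intervals and a line at 1. The folds lie between 0.781 (him-5 in F3) and 1.23 (spo-11 in P0), inside the 2-fold limits at the edges of the plot.

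The other genes of the process gave 0 calls in P0, F1 and F3 among 12 break and end-processing genes and 16 crossover and joint-molecule genes. In the first list the folds ran between 0.906 (com-1) and 1.36 (rec-1) in P0, between 0.852 (the axis gene him-3) and 1.13 (rad-54.L) in F1, and between 0.847 (him-3) and 1.09 (rec-1) in F3. In the second they ran between 0.920 (rfs-1) and 1.42 (zhp-1) in P0, between 0.753 (rfs-1) and 1.12 (slx-1) in F1, and between 0.749 (zhp-4) and 1.41 (zhp-1) in F3. The median log2 ratios were 0.07 and 0.05 in P0, 0.01 and -0.04 in F1, and 0.03 and -0.04 in F3, each within 0.10 of 0, as were those of the 10 genes at 0.03, -0.09 and -0.05. The absence of 2-fold calls rests on the HT115 reference: over both strands against the untreated library zhp-3 was 2.80-fold higher in P0, 2.61-fold in F1 and 3.14-fold in F3, and dsb-1 and dsb-2 had folds of 0.423 and 0.359 in P0, 0.308 and 0.292 in F1, and 0.4001 and 0.364 in F3. In these alternative comparisons 1 member was called higher each time, and 2, 4 and 3 were called lower. Of measured genes, 19.6%, 19.7% and 19.9% were called higher and 9.94%, 13.2% and 10.8% lower. The HT115 library itself had folds of 3.57 in zhp-3, 0.449 in dsb-1 and 0.373 in dsb-2 against the untreated library. Over both strands against HT115, member folds ran between 0.649 (him-5 in F1) and 1.16 (spo-11 in P0), so none reached 2-fold.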

How the data were processed

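Small RNAs of 17 to 30 bases from WAGO-4 precipitates of 6 groups, 1 library each, were sequenced by the authors, who per the submitters' processing notes used Bowtie2 for alignment. For the Bowtie2 version, build, annotation and read counter, nothing was given in the sources used here. The authors deposited whole-number counts per transcript, as sense and antisense columns in 5 tables and as 1 column in the untreated table, which was taken to hold both strands together although the labels do not say so. Strand was judged from microRNAs, 0.202% to 0.417% antisense. Counts were summed per gene, and 3 lines per table without a gene, 0.000106% to 0.000296% of reads, were left out. Levels are CPM of the strand total, or of both strands over 45162 genes found in all tables; the 348 others hold 0.855% to 1.21% of both-strand reads. Lengths come from Ensembl release 115 (WBcel235), which may not be the authors' build. Log2 ratios had 0.5 added to each count.

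No test was possible with 1 library per group. Intervals of levels are exact Poisson, of folds exact conditional binomial and of shares Wilson intervals, all at 95%. Calls needed 25 CPM in the higher library and a 2-fold difference. The members and gene lists were chosen with earlier results of these data known. Named genes are the 10 members, the 2 RNAi targets, the 2-fold and extreme genes of the other 2 lists, genes overlapping a member and the 3 profiles closest to the member of widest range. The split by gene list of the tables was added after the values were seen. Python 3.11.15, pandas 2.3.3, scipy 1.17.1 and edgeR 4.0.16 (TMM factors only, R 4.3.3) were used. The fold calculation was tested on simulated counts with counting error only, without differences between replicates or PCR copies.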

Additional observations from a re-analysis of the deposited data

How the results depend on the processing

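Counts of called members stayed within 1.5 times of those reported under totals without the 20 most abundant genes, a pseudocount of 5, no minimum level and the highest transcript only, in all 5 comparisons. All 10 members were measured in each comparison, so leaving out the minimum level could not change their counts. For lin-15b RNAi, 1 gene (dsb-2) was called higher with HT115 as reference, on both strands and on antisense reads alike. For HT115 against the untreated library, 5 genes were called lower with median-of-ratios scaling, with TMM scaling and at a fold threshold of 1.5. With the untreated library as reference, 1 gene was called higher in P0, F1 and F3, and 2, 4 and 3 were called lower; in P0 cosa-1 missed the limit at a fold of 0.5001. The cause was not tested. No member called with the main settings changed direction under an alternative in the lin-15b RNAi and HT115 comparisons with the untreated library. The P0, F1 and F3 comparisons had no called member, so this could not be asked there. The call of cosa-1 after lin-15b RNAi was lost with HT115 as reference, at a both-strand fold of 0.979 (0.870 to 1.10). Genes not called with the main settings did change direction, among them zhp-3 in P0, F1 and F3 with the untreated library as reference. Likewise dsb-1, dsb-2, xnd-1 and him-14 were below 1 after lin-15b RNAi against the untreated library and above 1 against HT115, with log2 ratios over both strands of 0.76, 1.19, 0.40 and 0.45 against HT115. The gene him-5 was above 1 against the untreated library and below 1 against HT115, with a log2 ratio of -0.25 over both strands. Median levels per kb moved with the longest coding sequence as length to 95.5 in him-5, 69.6 in him-17 and 67.5 in cosa-1, and with the highest transcript to 65.9 in dsb-1, 46.1 in him-5 and 46.4 in zhp-3. No paired analysis was possible because each group has 1 library, and no library could be left out for the same reason. At the lowest depth, 146 antisense reads of spo-11 in F1, the interval of a level runs from 22.6 to 31.5 CPM, which limits what can be told apart at that gene.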
